A study of Mus musculus with 23 samples.

Results

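The genes described here encode the proteins of the cornified envelope, the cross-linked protein shell of the outermost skin cells, and of the keratohyalin granules beside it. They are the entries whose symbol begins with Lce or Sprr and a digit, together with Flg (filaggrin), Flg2, Hrnr (hornerin), Rptn (repetin), Crnn (cornulin), Ivl (involucrin) and Lor (loricrin). This rule used names only and took 45 of the 56379 genes in the table, of which 44 were among the 23083 genes with enough counts to be tested. Sprr2c-ps, with 2 counts in all libraries together, was not tested. By subfamily there were 14 Lce1 genes, 6 Lce3 genes, Lce6a, 2 Sprr1 genes, 13 Sprr2 genes, Sprr3 and Sprr4, the 5 S100-fused genes (Flg, Flg2, Hrnr, Rptn and Crnn), and the pair Lor and Ivl.

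Levels were measured by RNA sequencing in 23 libraries of mouse skin and skin wounds. Mice of both arms were homozygous for human TNF at the mouse locus (HTNFki/ki) and for the leptin receptor mutation (Leprdb/db), were 8 to 12 weeks old, and received 4 full-thickness wounds on the back with a 6 mm punch under isoflurane, with a single dose of tramadol at 5 mg/kg. On days 0, 3, 7 and 10 a wider punch of 8 mm removed the sample, so that a wound sample holds wound bed and a rim of skin in unknown proportions. The control arm received PBS and the other arm adalimumab, a human monoclonal antibody against human TNF, at 20 mg/kg under the skin on days 0, 3, 7 and 10. Each of the 8 groups had 3 libraries, except adalimumab day 10 with 2. The day 0 samples are called day 0 skin here, since the labels do not say whether they were taken before the first injection.

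Keratinocytes build the envelope as they leave the living layers of the epidermis. Involucrin forms an early scaffold under the cell membrane, loricrin adds the bulk of the mature shell, the small proline-rich (Sprr) proteins act as cross-bridges, and late cornified envelope (Lce) proteins are added last. Transglutaminases join these proteins covalently. The S100-fused proteins are long repeat proteins of the granular layer, and filaggrin, the best known of them, is cut into units that bundle keratin filaments and are later broken down to amino acids that hold water. Loricrin and the Lce1 genes are known from undisturbed epidermis, whereas Lce3 genes, Sprr1b, the Sprr2 genes and repetin are known for high expression in injured or inflamed epidermis.

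The genes lie together on chromosome 3, and 41 of the 45 had a promoter entry in the RefSeq table of build GRCm38.p6 (the exceptions were Lce1f, Sprr2c-ps, Sprr2g and Sprr2j-ps). The 250 bases before the transcript start were searched on both strands for 4 motifs: TATAAA (the TATA box), TGANTCA (the AP-1 motif, which reads the same on both strands), ATTTGCAT (the octamer) and ACTGTCTCACAG, the run of 12 bases that the most Lce1 promoters share. No motif overlapped another in the promoters printed here. The 6 promoters below are shown because they stand for the subfamilies whose levels went apart in the wounds. Capitals mark the motif matches, and each sequence runs 5′ to 3′ up to the base before the start.
Lor (chr3:92083143-92083392, minus strand): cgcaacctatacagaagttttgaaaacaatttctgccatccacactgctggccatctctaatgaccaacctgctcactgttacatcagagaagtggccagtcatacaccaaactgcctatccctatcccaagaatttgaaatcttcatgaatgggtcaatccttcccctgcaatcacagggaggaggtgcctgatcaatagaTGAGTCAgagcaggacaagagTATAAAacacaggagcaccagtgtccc
Rptn (chr3:93393449-93393698, plus strand): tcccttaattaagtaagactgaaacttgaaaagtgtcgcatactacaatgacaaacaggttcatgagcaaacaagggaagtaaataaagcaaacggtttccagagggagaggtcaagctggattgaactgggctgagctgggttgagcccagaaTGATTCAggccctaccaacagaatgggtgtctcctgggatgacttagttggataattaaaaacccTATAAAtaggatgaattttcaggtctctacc
Lce1b (chr3:92656927-92657176, minus strand): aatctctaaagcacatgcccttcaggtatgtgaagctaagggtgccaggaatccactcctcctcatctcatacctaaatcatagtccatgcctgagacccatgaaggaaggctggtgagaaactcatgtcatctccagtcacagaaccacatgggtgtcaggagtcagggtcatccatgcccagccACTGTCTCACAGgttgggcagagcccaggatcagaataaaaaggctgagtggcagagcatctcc
Lce3f (chr3:92991967-92992216, plus strand): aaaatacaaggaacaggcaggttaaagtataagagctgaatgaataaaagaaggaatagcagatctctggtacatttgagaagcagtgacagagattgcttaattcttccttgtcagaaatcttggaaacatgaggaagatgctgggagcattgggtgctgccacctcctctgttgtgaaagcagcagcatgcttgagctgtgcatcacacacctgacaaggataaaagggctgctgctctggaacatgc
Sprr1b (chr3:92438780-92439029, minus strand): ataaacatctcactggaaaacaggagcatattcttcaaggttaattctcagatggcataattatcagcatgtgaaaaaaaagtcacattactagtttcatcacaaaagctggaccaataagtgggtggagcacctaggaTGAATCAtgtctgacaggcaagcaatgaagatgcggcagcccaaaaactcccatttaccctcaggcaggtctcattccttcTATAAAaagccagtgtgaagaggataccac
Sprr2d (chr3:92338890-92339139, plus strand): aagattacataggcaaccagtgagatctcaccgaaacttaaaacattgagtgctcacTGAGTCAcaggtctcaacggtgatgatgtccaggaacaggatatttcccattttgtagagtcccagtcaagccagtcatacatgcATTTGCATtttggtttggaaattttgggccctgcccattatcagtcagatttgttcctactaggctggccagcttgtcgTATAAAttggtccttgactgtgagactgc

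The AP-1 motif was present in 15 of 41 promoters (36.6%), against 7.82% of all 27025 promoters in the table. It stood in both Sprr1 promoters, 7 of 10 Sprr2 promoters, 4 of 5 S100-fused promoters (Crnn, Flg, Flg2 and Rptn), Lor and Ivl, and in 0 of 13 Lce1 and 0 of 6 Lce3 promoters. The same 7 Sprr2 promoters (Sprr2b, Sprr2d, Sprr2e, Sprr2f, Sprr2h, Sprr2i and Sprr2k) also held the TATA box and the octamer, which was found in 1.81% of all promoters. The TATA box was present in 20 of 41 promoters (48.8%), against 14.3% of all promoters. The shared Lce1 run was present in 7 of 13 Lce1 promoters and in 0.0296% of all promoters, and it was chosen from these same Lce1 sequences. The Lce3f promoter held none of the 4 motifs. These are matches of letters, and no binding was measured.

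Total counts were 33080930 to 37494760 per library. Several libraries stood apart in their keratinocyte genes. Control day 0 replicate 2 was the highest of its group in suprabasal keratinocyte genes (of the layers above the basal one) but the lowest in basal ones. Control day 3 replicate 2 was the highest of its group in both. Adalimumab day 3 replicate 1 was the lowest of its group in basal keratinocyte genes. It held 1.38 CPM of the basal keratin Krt5 (CPM being counts scaled to a common library size). Adalimumab day 7 replicate 1 stood near the control wounds, and adalimumab day 0 replicates 2 and 3 were rich in hair follicle genes. Xist was present in every library of days 0 and 3 and in adalimumab day 7 replicate 3, and the Y-linked gene Ddx3y in the other libraries of days 7 and 10. Sex therefore cannot be told apart from stage in comparisons of days 7 and 10 with day 0. The count columns of days 0 and 3 are also named in another series than those of days 7 and 10. What these series stand for is not stated, and they cannot be told apart from stage either. Between the arms on day 7 the sexes were unbalanced, since only adalimumab replicate 3 had Xist. This limit also holds where days 7 and 10 are averaged and where changes from day 0 to day 7 are compared. In bulk tissue, fewer cells of a type and less RNA per cell cannot be told apart.

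**Figure D1:**
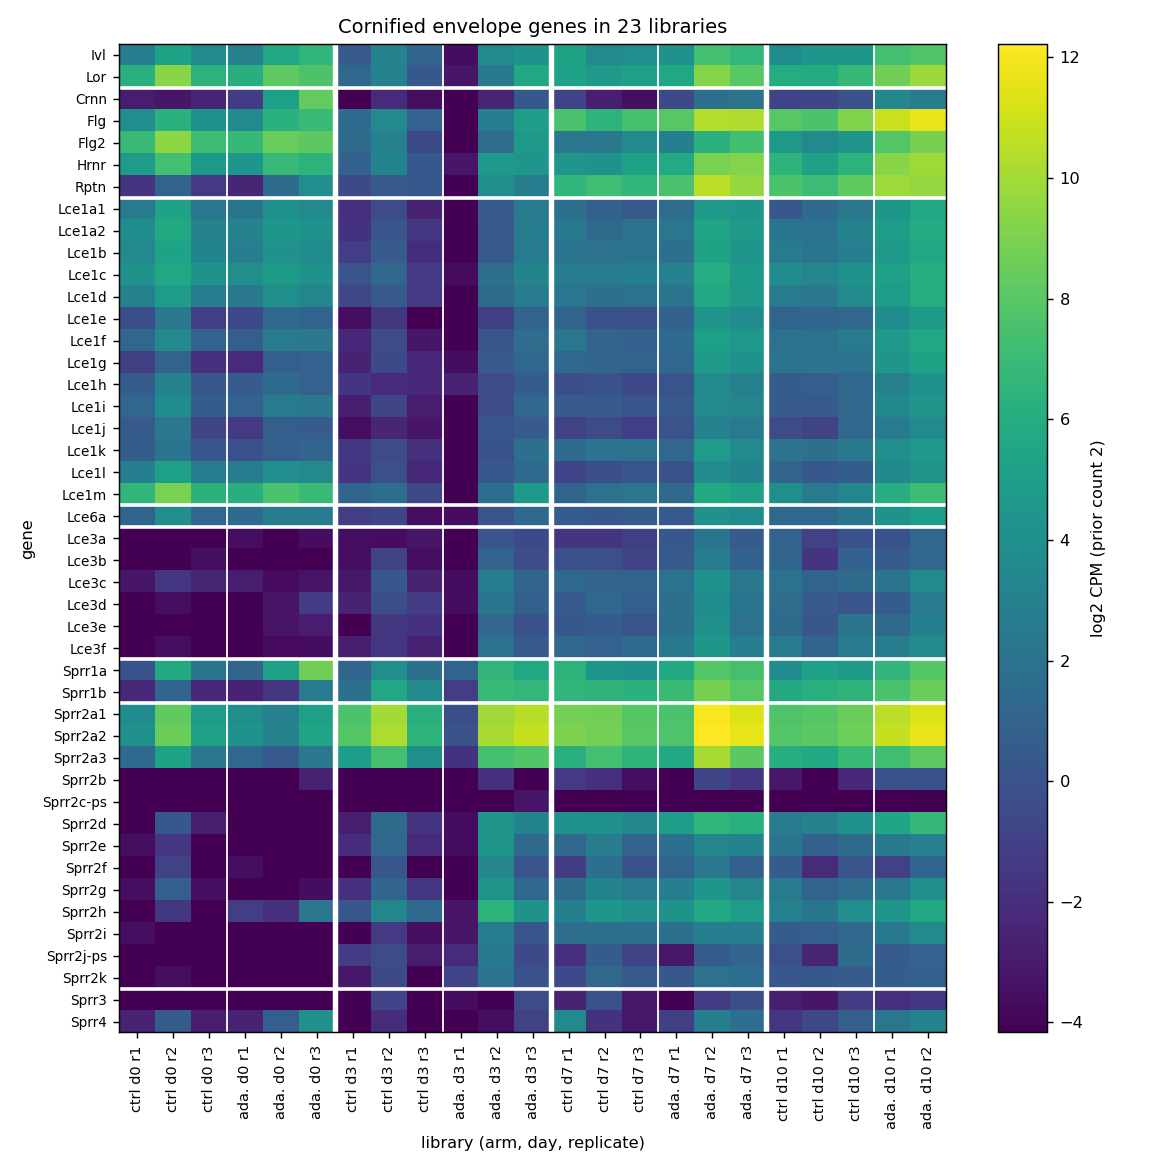
Level of each of the 45 genes (rows, grouped by subfamily) in each of the 23 libraries (columns, grouped by arm and day), as log2 CPM with a prior count of 2. The Lce3 rows are dark in day 0 skin and lighter in every wound of days 7 and 10, and the column of adalimumab day 3 replicate 1 is dark almost throughout (at most 2.11 CPM).

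Loricrin, the Lce1 genes and Flg2, all known from undisturbed epidermis, were far lower in vehicle-treated wounds of day 3 than in day 0 skin. Lor stood at 76.3, 646 and 84.5 CPM in day 0 skin of control replicates 1 to 3 and at 2.37, 8.20 and 1.20 CPM in the wounds of day 3. Flg2, a relative of filaggrin with the same layout, went from 125, 690 and 138 CPM to 2.81, 7.93 and 0.668 CPM. Lce1m went from 99.5, 482 and 83.4 CPM to 2.25, 3.33 and 0.584 CPM. The groups did not overlap for any of the 3 genes, as for 25.4% of all genes tested in this direction. In edgeR's quasi-likelihood test with Benjamini-Hochberg adjustment over all genes tested, Lor fell by 6.10 ± 1.52 on the log2 scale (SE, adjusted p = 0.00536), Flg2 by 6.38 ± 1.54 (adjusted p = 0.00446) and Lce1m by 6.75 ± 1.50 (adjusted p = 0.0026). These 3 calls held when any single library was left out. The comparisons of days 3, 7 and 10 with day 0 share the day 0 libraries of their arm, so they are not independent of each other.

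Of the 44 genes tested, 16 fell and 4 rose in control wounds of day 3, where 34.6% of all genes tested were called in either direction (17.1% lower, 17.5% higher). The 16 were 12 of the 14 Lce1 genes, Lce6a, Lor, Flg2 and Hrnr. The count of 20 became 13 without control day 0 replicate 2. The share of all genes called in that omission is not given here, so nothing particular to the genes is read from the change. The median log2 difference over the 14 Lce1 genes was -4.58, against -0.02 over all genes tested. Hornerin, a filaggrin-like repeat protein, went from 29.8, 162 and 23.9 CPM to 1.79, 9.20 and 1.22 CPM (log2 difference -4.14 ± 1.31, edgeR adjusted p = 0.0207). That call was lost without control day 0 replicate 2 (log2 difference -2.68, adjusted p = 0.109) and without control day 3 replicate 1 (0.0878) or 3 (0.0823), over a range of 0.000738 to 0.109 in all alternatives. Keratinocyte markers were lower as well: the summed suprabasal list of 6 genes was at 1836 to 6560 CPM on day 0 and 48.1 to 612 CPM on day 3 (3 of 6 called lower, median log2 difference -3.43), and 2 of the 7 basal genes were called lower (median -1.64). Their part in the fall of the envelope genes was not tested. Filaggrin itself went from 14.7, 78.4 and 16.3 CPM to 2.90, 11.6 and 1.92 CPM and did not pass (log2 difference -2.73 ± 1.27, edgeR adjusted p = 0.104).

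The 4 genes that rose by day 3 in control wounds were Sprr1b, Sprr2h, Sprr2k and Lce3d. Sprr1b, a cross-bridging precursor, went from 0.138, 2.17 and 0.152 CPM to 3.72, 47.4 and 12.9 CPM (log2 difference 4.68 ± 1.56, edgeR adjusted p = 0.0274). Sprr2h went from 0, 0.303 and 0 CPM to 1.11, 9.68 and 2.67 CPM (5.40 ± 1.78, edgeR adjusted p = 0.0256). The groups did not overlap for either gene, as for 24.5% of all genes tested in this direction. Both calls were lost without control day 0 replicate 1, control day 0 replicate 3 or control day 3 replicate 2 (highest adjusted p 0.0943 and 0.0867). The call of Sprr2k held in 6 and that of Lce3d in 18 of the 23 single-library omissions. With the animal as a block, the adjusted p of Sprr2h was 0.0665, within a range of 0.00204 to 0.0867 over its alternatives.

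Control wounds of days 7 and 10 held a different set of these transcripts from day 0 skin. All 6 Lce3 genes, 6 of 12 Sprr2 genes tested, Sprr1b and Rptn rose on both days, and Flg2, Lce1m and Lce1l fell on both. That gives 14 higher and 3 lower on each day, where 33.4% of all genes tested were called on day 7 and 34.4% on day 10 (16.4% and 16.2% higher, 17% and 18.2% lower). The day 7 count of 17 became 26 without control day 3 replicate 2 and adalimumab day 3 replicate 1 together. The share of all genes called in that omission is not given here, so nothing particular to the genes is read from the change. No member was called between control days 7 and 10 by edgeR or by DESeq2, with 0% of all genes called by edgeR. At an unadjusted p under 0.05 in edgeR there were 0 members, against 5.13% of all genes tested.

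Repetin, an S100-fused protein that is scarce in undisturbed skin, stood at 0.248, 2.15 and 0.304 CPM in control day 0 skin, 0.615, 1.29 and 1.20 CPM on day 3, 99.7, 144 and 98.1 CPM on day 7 and 192, 133 and 296 CPM on day 10. The day 3 values lay within those of day 0, and no wound of day 7 or 10 overlapped the earlier samples (24.5% and 25.1% of all genes tested lay above day 0 without overlap on these days, 26.6% and 27.5% below). Rptn was 6.97 ± 1.58 higher on the log2 scale on day 7 than on day 0 (edgeR adjusted p = 0.00327) and 7.83 ± 1.64 higher on day 10 (adjusted p = 0.00183). Both calls held in every single-library omission.

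Filaggrin and Flg2 lay on opposite sides of their day 0 values in control wounds of days 7 and 10. Flg in control wounds stood at 185, 87.1 and 174 CPM on day 7 and 248.5, 195 and 547 CPM on day 10, above each of its day 0 values. Its differences from day 0 were 2.03 ± 1.23 on day 7 (edgeR adjusted p = 0.214) and 3.18 ± 1.29 on day 10 (adjusted p = 0.0643), and neither passed. Flg2 stood at 4.93, 5.00 and 12.7 CPM on day 7 and 23.6, 12.5 and 20.8 CPM on day 10, below each of its day 0 values. Flg2 fell by 5.40 ± 1.47 on the log2 scale by day 7 (edgeR adjusted p = 0.00988) and by 4.07 ± 1.38 by day 10 (adjusted p = 0.0296). The day 10 call of Flg2 was lost without control day 0 replicate 2 (log2 difference -2.74, adjusted p = 0.126) and without each control day 10 library (0.0765 to 0.0932), over a range of 0.00314 to 0.126 in all alternatives. Hornerin, at 20.6, 18.2 and 37.2 CPM on day 7 and 90.5, 37.4 and 87.3 CPM on day 10, overlapped its day 0 values on both days.

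Loricrin in control wounds was at 37.5, 24.5 and 35.2 CPM on day 7 and 63.5, 61.3 and 107 CPM on day 10. The day 7 values lay below those of day 0, and the day 10 values overlapped them. Neither difference from day 0 passed (log2 difference -3.05 ± 1.31, edgeR adjusted p = 0.0807 on day 7, and -1.80 ± 1.25, adjusted p = 0.274 on day 10). Involucrin, the early scaffold protein, stood at 7.33, 41.4 and 13.6 CPM in day 0 skin, 40.7, 12.0 and 14.6 CPM on day 7 and 14.1, 21.4 and 22.8 CPM on day 10, and these ranges overlapped.

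Within Lce1 the genes did not move alike. Lce1m in control wounds stood at 2.08, 3.89 and 4.73 CPM on day 7 and 16.1, 6.36 and 9.98 CPM on day 10, below its day 0 values, and was lower than on day 0 (log2 difference -5.96 ± 1.44, edgeR adjusted p = 0.00494 on day 7, and -4.36 ± 1.33, adjusted p = 0.0179 on day 10). The day 10 call was lost without control day 0 replicate 2, control day 10 replicate 2 or control day 10 replicate 3 (highest adjusted p 0.0818). Lce1g stood at 0.413, 1.98 and 0.213 CPM in day 0 skin, 2.56, 2.24 and 2.06 CPM on day 7 and 4.33, 4.11 and 4.09 CPM on day 10, so that all 6 wounds lay above day 0. Its differences did not pass in control wounds (1.39 ± 1.05, edgeR adjusted p = 0.322, and 2.25 ± 1.07, adjusted p = 0.11). Over the 14 Lce1 genes the median log2 difference from day 0 was -2.18 on day 7 and -1.03 on day 10, with 2 called lower on each day.

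The 6 Lce3 genes, which encode late envelope proteins of damaged epidermis, were at or near 0 counts in day 0 skin. Lce3f stood at 0, 0.0275 and 0 CPM in control day 0 skin, at 2.42, 1.92 and 2.61 CPM on day 7 and at 5.91, 2.20 and 6.20 CPM on day 10. Since only 1 count stood against it on day 0, its change is given as a ratio of group levels with its 95% counting interval, 245-fold (43.5 to 9707) on day 7 and 492-fold (87.9 to 19473.3) on day 10. Lce3e had 0 counts in control day 0 skin and was at least 42.8-fold higher on day 7 and at least 94.3-fold higher on day 10, against a floor of 3 counts over the group. The edgeR adjusted p of Lce3f was 0.00133 and 0.000493, and that of Lce3e 0.00546 and 0.00207. The calls of Lce3f and Lce3e held in every single-library omission. With such genes at their bound, the median log2 difference over the 6 Lce3 genes was 5.62 on day 7 and 6.65 on day 10 (6.80 and 7.72 as fitted), against -0.01 over all genes tested on both days.

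Among the cross-bridging proteins, Sprr1b in control wounds stood at 96.5, 90.5 and 82.3 CPM on day 7 and 52.2, 73.8 and 90.2 CPM on day 10, against at most 2.17 CPM on day 0. It was 6.76 ± 1.70 higher on the log2 scale on day 7 (edgeR adjusted p = 0.00619) and 6.44 ± 1.68 higher on day 10 (adjusted p = 0.00741). Its neighbour Sprr1a, at 0.909, 54.5 and 4.44 CPM on day 0, 87.6, 21.7 and 17.8 CPM on day 7 and 14.2, 37.4 and 27.1 CPM on day 10, overlapped between stages and was not called. The Sprr2 genes called on both days were Sprr2d, Sprr2e, Sprr2h, Sprr2i, Sprr2j-ps and Sprr2k. Sprr2i had 1 count in control day 0 skin and rose 351-fold on day 7 (62.5 to 13890.6) and 203-fold on day 10 (36.0 to 8059). Sprr2a2, at 500.1, 449.9 and 249.5 CPM on day 7 against 16.3, 368 and 35.9 CPM on day 0, was not called.

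**Figure D2:**
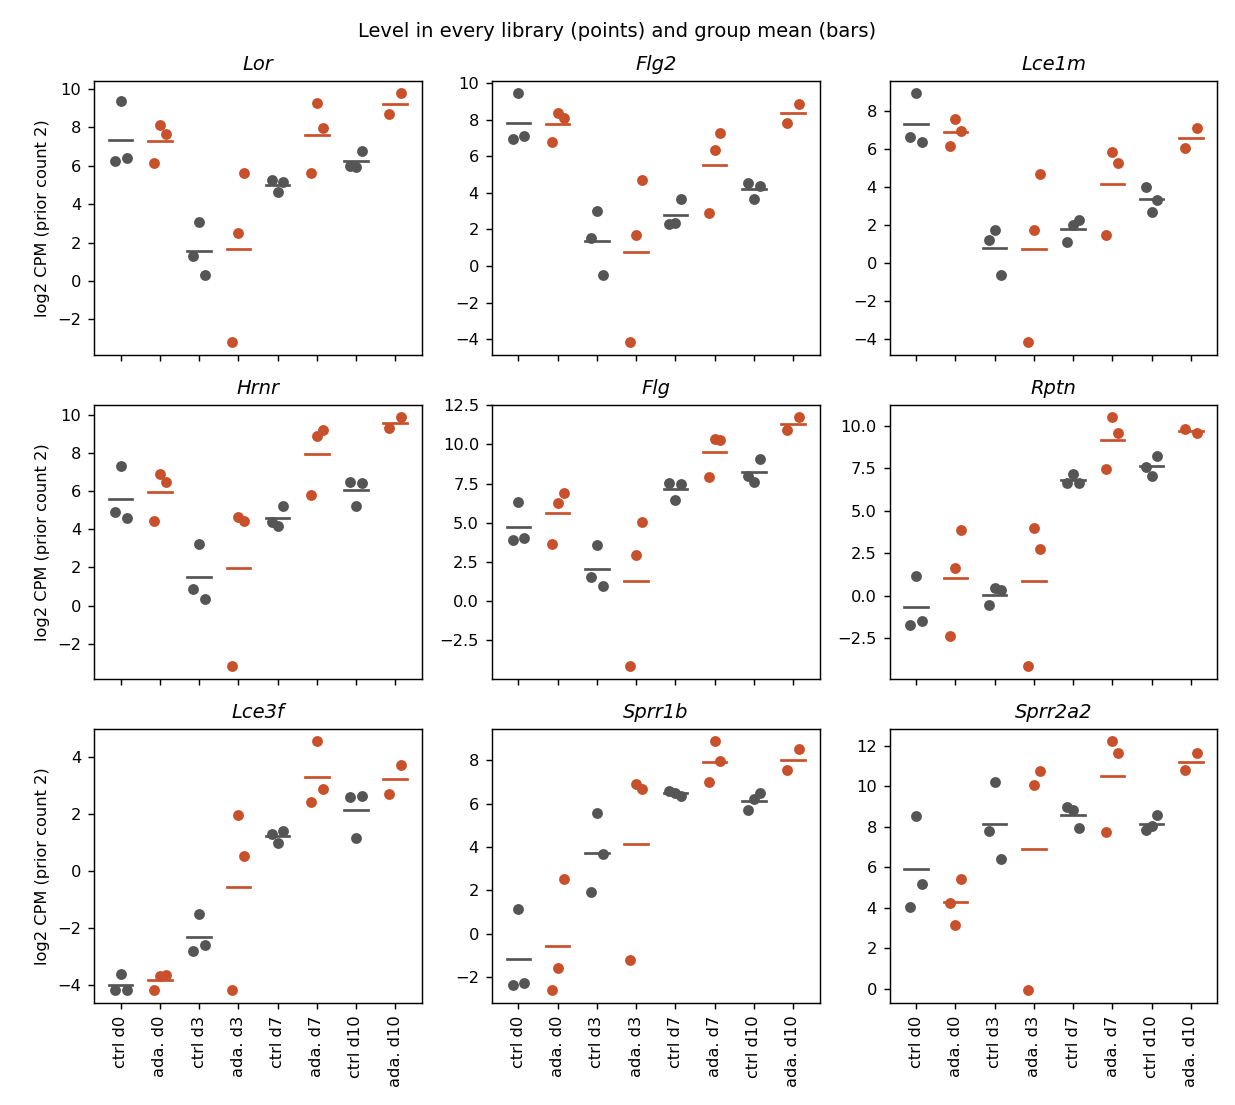
Level of 9 of the genes in each library by day (points, log2 CPM with a prior count of 2, control grey and adalimumab orange), with bars at the group means. Lor, Flg2 and Lce1m lie lowest on day 3, whereas Rptn and Lce3f climb from day 0 to days 7 and 10 in both arms.

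In adalimumab-treated wounds of days 7 and 10, Lce3 genes, Sprr2 genes, Sprr1b and Rptn rose from day 0 as well, and Flg and 2 Lce1 genes were also called higher. On day 3, 17 genes were higher and 3 lower, where 21.5% of all genes tested were called (11.9% higher, 9.54% lower). The 17 were 6 Lce3 genes, 10 Sprr2 genes and Sprr1b, and the 3 were Flg2, Lce1m and Crnn. For the omissions and refits in this paragraph the share of all genes called is not given. Nothing particular to the genes is read from those counts. The count of 20 became 10 without adalimumab day 0 replicate 2 and 10 without adalimumab day 3 replicate 2. With the animal as a block the count was 10 (7 higher, 3 lower). It was 0 when only adalimumab day 0 and 3 were fitted and 0 when the hair-rich day 0 libraries were left out, which leaves a single day 0 library assumed to vary like the other groups. On day 7, 22 genes were higher and 1 lower against a background of 32.5% (14.6% higher, 17.9% lower), and on day 10, 20 were higher and 0 lower against 14.4% (9.02% higher, 5.41% lower). Without the hair-rich libraries 8 were called on day 7 and 1 on day 10, and without adalimumab day 0 replicate 2 and without adalimumab day 10 replicate 2 alone the day 10 count was 13 and 10. No member was called between adalimumab days 7 and 10 by edgeR or DESeq2, with 0% of all genes called by edgeR. At an unadjusted p under 0.05 in edgeR there were 0 members, against 7.01% of all genes tested.

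Repetin in adalimumab-treated skin went from 0.137, 2.98 and 14.3 CPM on day 0 to 179, 1456 and 782 CPM on day 7 and to 910 and 783 CPM on day 10. All 5 late wounds lay above the day 0 samples, as for 18.4% of all genes tested on day 7 and 25.5% on day 10, and the differences from day 0 were 7.11 ± 1.57 (edgeR adjusted p = 0.00298) and 7.18 ± 1.61 (adjusted p = 0.00697) on the log2 scale. Filaggrin went from 12.6, 78.0 and 122 CPM on day 0 to 246, 1282 and 1256 CPM on day 7 and 1919 and 3376 CPM on day 10. Its rise passed on both days (3.71 ± 1.32, edgeR adjusted p = 0.0396, and 5.23 ± 1.46, adjusted p = 0.0242), but was lost on day 7 without any of the day 0 libraries or adalimumab day 7 replicate 2 or 3 (highest adjusted p 0.113). On day 10 it was lost without adalimumab day 0 replicate 1 or 2 or either day 10 library (highest adjusted p 0.112).

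Loricrin, Flg2 and cornulin behaved otherwise in this arm. Lor stood at 70.2, 280 and 197 CPM on day 0, 48.9, 603 and 251 CPM on day 7 and 404 and 861 CPM on day 10, and its differences from day 0 were 0.72 ± 1.22 (edgeR adjusted p = 0.679) and 1.79 ± 1.34 (adjusted p = 0.379). Flg2 stood at 110, 334 and 276 CPM on day 0, 7.49, 80.0 and 156 CPM on day 7 and 228 and 463 CPM on day 10, with differences of -1.56 ± 1.24 (adjusted p = 0.348) and 0.52 ± 1.35 (adjusted p = 0.827). Neither gene was called on either day. Crnn fell from 0.356, 33.9 and 314 CPM on day 0 to 0, 0.122 and 1.22 CPM on day 3 and 0.632, 3.63 and 4.44 CPM on day 7 (log2 difference -7.98 ± 1.74, edgeR adjusted p = 0.00379, and -5.32 ± 1.52, adjusted p = 0.0138). Without adalimumab day 0 replicate 3 the day 7 difference of Crnn was -2.45 and the call was lost, as it was without adalimumab day 7 replicate 1 or 2. Without the hair-rich pair both differences changed sign (0.38 and 3.10). The part of the hair genes of that pair in the fall of Crnn was not tested.

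Lce1g and Lce1k were the Lce1 genes called higher than day 0 in adalimumab-treated wounds, named after their values were seen. Lce1g went from 0.164, 1.66 and 1.93 CPM on day 0 to 2.44, 25.5 and 17.8 CPM on day 7 and 20.8 and 38.0 CPM on day 10 (3.60 ± 1.11, edgeR adjusted p = 0.0202, and 4.55 ± 1.20, adjusted p = 0.0179). Lce1m, at 71.7, 192 and 124 CPM on day 0, stood at 2.74, 56.1 and 37.6 CPM on day 7 and at 65.6 and 139 CPM on day 10. The Lce1m values of day 7 lay below, and those of day 10 overlapped, those of day 0. The Lce1g call was lost without adalimumab day 0 replicate 1 or day 7 replicate 2 on day 7 (highest adjusted p 0.0624) and without day 10 replicate 2 on day 10 (0.107). Lce1k went from 0.932, 1.70 and 2.18 CPM to 2.50, 29.0 and 13.0 CPM and to 14.6 and 26.2 CPM (3.21 ± 1.02, edgeR adjusted p = 0.0237, and 3.67 ± 1.09, adjusted p = 0.0322), and its call held in 20 of 23 omissions on day 7 and 18 on day 10.

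All 6 Lce3 genes were called higher than day 0 on days 7 and 10 in this arm. Lce3f went from 0, 0.0236 and 0.0247 CPM to 5.33, 23.2 and 7.32 CPM on day 7 and 6.50 and 13.0 CPM on day 10, ratios of 699-fold (193 to 5777) and 579-fold (160 to 4790). Among the Sprr2 genes, 11 of 12 were called on day 7 and 9 of 12 on day 10. Sprr2d had 0 counts in adalimumab day 0 skin and was at least 2683-fold higher on day 7 and at least 3004-fold higher on day 10, at 32.1, 92.9 and 76.2 CPM and at 44.6 and 108 CPM. Sprr2a2 went from 18.8, 8.91 and 42.6 CPM to 212, 4781 and 3197 CPM on day 7 and 1766 and 3202 CPM on day 10 (6.86 ± 1.84, edgeR adjusted p = 0.00979, and 6.73 ± 1.87, adjusted p = 0.0236). The day 10 call of Sprr2a2 was lost without any one library of adalimumab day 0 or day 10 (highest adjusted p 0.0933), and the split of its reads from those of Sprr2a1 and Sprr2a3 is uncertain. 

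Across both arms, 16 of the 44 genes were higher in every one of the 11 libraries of days 7 and 10 than in every one of the 6 day 0 libraries, and 0 were lower in all of them, where 9.16% of all genes tested were higher and 10.2% lower by that measure. The 16 were the 6 Lce3 genes, 7 Sprr2 genes, Sprr1b, Rptn and Lce1g. Sprr2j-ps, with 0 CPM in day 0 skin, had a minimum of only 0.0602 CPM in the late wounds. As a ratio, the stages lay closest for Lce1g, with a day 0 maximum of 1.98 CPM and a late minimum of 2.06 CPM. Rptn was further apart, with a day 0 maximum of 14.3 CPM and a late minimum of 98.1 CPM. This is a description of levels, with no test.

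The arms were compared within each day. On day 7 the median log2 difference, adalimumab minus control, over the 44 genes was 2.48, and 43 were higher and Sprr4 lower. On day 10 it was 2.75 with 44 higher, and on day 3 it was 2.24 with 44 higher, while the medians over all genes tested were 0.00 on day 7, -0.04 on day 10 and 0.03 on day 3. No single gene passed edgeR's test on day 3, 7 or 10, where 0% of all genes tested were called on each day. At an unadjusted p under 0.05 there were 13, 22 and 21 genes on days 3, 7 and 10, all higher, against 17%, 4.09% and 14.1% of all genes tested in either direction. DESeq2 called 5, 0 and 0, where it called 4.24%, 0.026% and 2.17% of all genes. Leaving out control day 3 replicate 2 gave 2 calls on day 3, and leaving out this library and adalimumab day 3 replicate 1 gave 11. The share of all genes called in these omissions is not given here, so nothing particular to the genes is read from the counts.

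With days 7 and 10 averaged, the S100-fused genes had the largest median difference between the arms (3.67), followed by Lce6a (3.03), Lce1 (2.92), Lor with Ivl (2.90), Sprr1 (2.02), Lce3 (1.73), Sprr2 (1.57) and Sprr3 with Sprr4 (0.90), against -0.03 over all genes tested. This order is of values with no test between subfamilies. By edgeR 0 of 44 were called where 0.091% of all genes tested were, with 30 at an unadjusted p under 0.05, against 12.5% of all genes tested. DESeq2 called 18 (2.63% of all genes). A fit of the compared groups alone called 26 (1.69%). Leaving out adalimumab day 3 replicate 1 gave 16 calls (1.14%), and leaving out adalimumab day 7 replicate 1 gave 9 (1.51%). Leaving out control day 0 replicate 2 gave 1, and leaving out adalimumab day 3 replicate 1 with control day 3 replicate 2 gave 23. Counts without a percentage lack their share of all genes, and nothing particular to the genes is read from them. Every call in those fits was toward higher levels with adalimumab. Among the 26, 18, 16 and 9 there were 13, 12, 12 and 6 Lce1 genes and 0 Lce3 genes. On day 10 the fit of the compared groups alone called 30 genes (9.14% of all genes), among them all 14 Lce1 and all 5 S100-fused genes and 0 Lce3 genes.

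**Figure D3:**
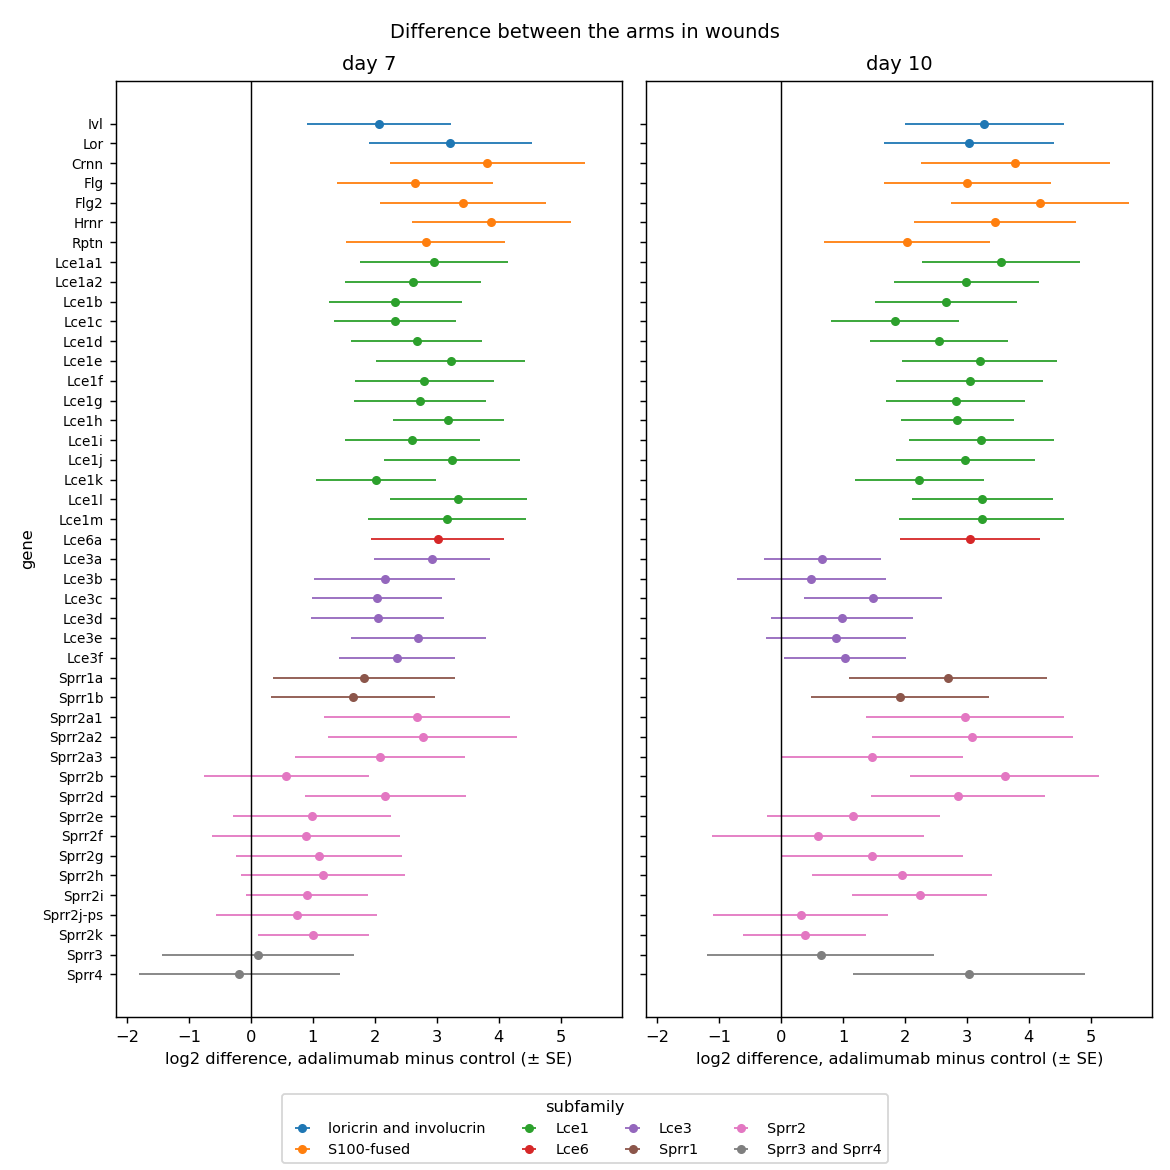
Log2 difference, adalimumab minus control, for each of the 44 genes tested on day 7 and on day 10 (points, bars are ± SE from edgeR, coloured by subfamily). The Lce1 and S100-fused genes have medians of 2.77 and 3.43 on day 7 and of 2.98 and 3.45 on day 10, and the Lce3 genes lie nearer 0 on day 10 (median 0.93) than on day 7 (median 2.26).

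Among the S100-fused genes on day 10, the arms did not overlap for any of the 5, as for 23.1% of all genes tested in this direction. Hrnr stood at 90.5, 37.4 and 87.3 CPM in control wounds and at 636 and 937 CPM with adalimumab (log2 difference 3.45 ± 1.31, edgeR adjusted p = 0.265). On day 7 it was at 20.6, 18.2 and 37.2 CPM and at 56.6, 479 and 585 CPM (3.88 ± 1.28, adjusted p = 1), with adalimumab replicate 1 nearest the control wounds. With the days averaged the difference of Hrnr was 3.67 ± 0.92 (adjusted p = 0.117). The difference of Flg2 was 3.43 ± 1.34 on day 7 (adjusted p = 1), 4.19 ± 1.44 on day 10 (adjusted p = 0.245) and 3.81 ± 0.98 averaged (adjusted p = 0.128). Crnn, a squamous S100-fused protein of low level here, stood at 0.488, 0.544 and 0.868 CPM in control wounds of day 10 and at 10.8 and 6.64 CPM with adalimumab (3.78 ± 1.53, adjusted p = 0.286).

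Loricrin on day 10 was at 63.5, 61.3 and 107 CPM in control and 404 and 861 CPM in adalimumab-treated wounds. The arms did not overlap for this gene, as for 23.1% of all genes tested in this direction. Its log2 difference was 3.04 ± 1.38 on day 10 (edgeR adjusted p = 0.336) and 3.22 ± 1.32 on day 7 (adjusted p = 1). Involucrin was at 14.1, 21.4 and 22.8 CPM against 157 and 219 CPM on day 10 (3.28 ± 1.28, adjusted p = 0.273). Filaggrin was at 248.5, 195 and 547 CPM against 1919 and 3376 CPM (3.00 ± 1.35, adjusted p = 0.333). Repetin, at 192, 133 and 296 CPM against 910 and 783 CPM, differed by 2.03 ± 1.33 (adjusted p = 0.51).

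Numbers of genes whose arms did not overlap were 0 on day 3, 17 on day 7 and 36 on day 10, all higher with adalimumab. In the same direction 6.6%, 2.85% and 23.1% of all genes tested did not overlap on those days. On day 7 the 17 included all 6 Lce3 genes, 4 S100-fused and 3 Lce1 genes, and on day 10 the 36 included all 14 Lce1, all 5 S100-fused and 2 Lce3 genes. Lce1a1 on day 10 was at 1.22, 2.96 and 5.08 CPM in control and 22.9 and 49.5 CPM in adalimumab-treated wounds (3.55 ± 1.28, edgeR adjusted p = 0.249). Lce3f was at 5.91, 2.20 and 6.20 CPM against 6.50 and 13.0 CPM, a difference of 1.03 ± 0.98 (adjusted p = 0.667), after 2.42, 1.92 and 2.61 CPM against 5.33, 23.2 and 7.32 CPM on day 7 (2.36 ± 0.94, adjusted p = 1). Lce6a, a lone late envelope gene, was at 2.41, 2.53 and 4.37 CPM against 18.3 and 33.03 CPM on day 10 (3.05 ± 1.13, adjusted p = 0.261).

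Among the cross-bridging proteins on day 10, Sprr1b was at 52.2, 73.8 and 90.2 CPM in control and 187 and 360 CPM in adalimumab-treated wounds (1.92 ± 1.44, edgeR adjusted p = 0.568), and Sprr1a at 14.2, 37.4 and 27.1 CPM against 98.5 and 241 CPM (2.69 ± 1.60, adjusted p = 0.463). Sprr2d was at 6.22, 8.02 and 17.3 CPM against 44.6 and 108 CPM (2.85 ± 1.41, adjusted p = 0.374). Both arms were separate for each of the 3 genes, as for 23.1% of all genes tested in this direction. Sprr4 was the exception of day 7, at 12.5, 0.239 and 0.0587 CPM in control and 0.421, 7.44 and 3.42 CPM in adalimumab-treated wounds (log2 difference -0.19 ± 1.62, adjusted p = 1). Its sign turned without control day 7 replicate 1 (4.63) and without adalimumab day 7 replicate 1 (0.40). Sprr3 stayed at or under 0.898 CPM in all 23 libraries.

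On day 3, adalimumab replicate 1 stood at 0 to 2.11 CPM for each of the 45 genes. The smallest unadjusted p belonged to Sprr2i, at 0, 0.323 and 0.0278 CPM in control and 0.0541, 6.79 and 1.10 CPM in adalimumab-treated wounds (4.43 ± 1.22, edgeR adjusted p = 0.156). Lor was at 2.37, 8.20 and 1.20 CPM against 0.0541, 5.54 and 49.3 CPM (2.22 ± 1.28, adjusted p = 0.384), and this difference changed to -0.51 without adalimumab day 3 replicate 3. The groups overlapped for every one of the 44 genes.

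Whether the change from day 0 differed between the arms was tested as an interaction. By edgeR 0 of 44 genes were called for days 3, 7 and 10, where 1.81% (0.234% higher, 1.57% lower), 0% and 0% of all genes tested were. At an unadjusted p under 0.05 there were 8, 19 and 16 of the 44, against 20.5%, 7.47% and 13.4% of all genes tested. DESeq2 called 5, 0 and 1, where it called 9.01%, 0.25% and 2.16% of all genes. The median interaction over the 44 genes was 2.52, 3.11 and 3.16 on the log2 scale on days 3, 7 and 10. Over all genes tested it was 0.02, -0.02 and -0.03. These medians are as fitted, with no bound set for genes at 0 counts in a group. A value above 0 is a more positive change with adalimumab. Of the 44 genes, 37, 37 and 36 lay above 0, against 51.0%, 48.7% and 48.4% of all genes tested. All 14 Lce1 genes did so on each day, while of the 6 Lce3 genes 4, 4 and 3 did. For Flg2 on day 10 it was 4.59 ± 1.86 (edgeR adjusted p = 0.301). Without control day 3 replicate 2 edgeR called 3 on day 3, and without this library and adalimumab day 3 replicate 1 it called 5. The share of all genes called in these omissions is not given here.

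In day 0 skin the arms differed in 1 gene, where 0.269% of all genes tested were called (0.264% higher, 0.00433% lower). In 2 genes, Crnn and Sprr2g (the second lower with adalimumab and not called), the arms did not overlap on day 0, as in 8.69% (higher) and 5.74% (lower) of all genes tested. Crnn stood at 0.0827, 0.055 and 0.122 CPM in control and 0.356, 33.9 and 314 CPM in adalimumab-treated mice (log2 difference 10.35 ± 1.99, edgeR adjusted p = 0.0481). The call held in 3 of 23 single-library omissions (highest adjusted p 0.316). With the replicate number as a block, which does not tie mice of different arms, 0 genes were called. In the hair-rich libraries, adalimumab day 0 replicates 2 and 3, Tchh (trichohyalin, of the inner root sheath of the hair) stood at 697 and 6440 CPM. The other day 0 libraries held 3.11 to 7.70 CPM. The summed hair follicle list of 9 genes was at 16.6, 2760 and 17870 CPM in adalimumab day 0 and 6.20 to 28.2 CPM in control day 0, and 4 of the 9 were called higher. Sprr1a, at 2.19, 34.9 and 401 CPM in adalimumab day 0, was high in the same replicate 3, and its difference from control (2.87 ± 1.53, adjusted p = 0.441) changed to -0.18 without that library. The part of these hair genes in the Crnn and Sprr1a values was not tested.

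The proportions between related transcripts changed with stage. The ratio of Flg to Flg2 counts was 0.114 to 0.441 in the 6 day 0 libraries, 1.03 to 2.88 in the 5 day 3 libraries where it is defined, and 7.29 to 37.6 in the 11 libraries of days 7 and 10. The 3 ranges do not overlap. In adalimumab day 7 replicates 1 to 3 the ratio was 32.8, 16.0 and 8.05, the last in the late library with Xist. The part of sex in this ratio was not tested. The ratio of Lce1m to Lce1g was 64.1 to 436 on day 0, 0 to 19.3 on day 3 and 0.811 to 3.71 on days 7 and 10. Sprr1b to Sprr1a went from 0.00812 to 0.152 on day 0 to 1.10 to 4.63 on days 7 and 10. Ratios of counts are not corrected for transcript length, so only their change between libraries can be read, and they are given with no test.

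The ratio of summed Lce3 to summed Lce1 was 0.000316 to 0.00238 on day 0, 0.0553 to 0.977 on day 3 and 0.055 to 0.465 on days 7 and 10. Within day 7 it was 0.204 to 0.254 in control and 0.0928 to 0.465 in adalimumab-treated wounds, which overlapped. Within day 10 it was 0.15 to 0.291 in control and 0.055 and 0.0675 in adalimumab-treated wounds, which did not.

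**Figure D4:**
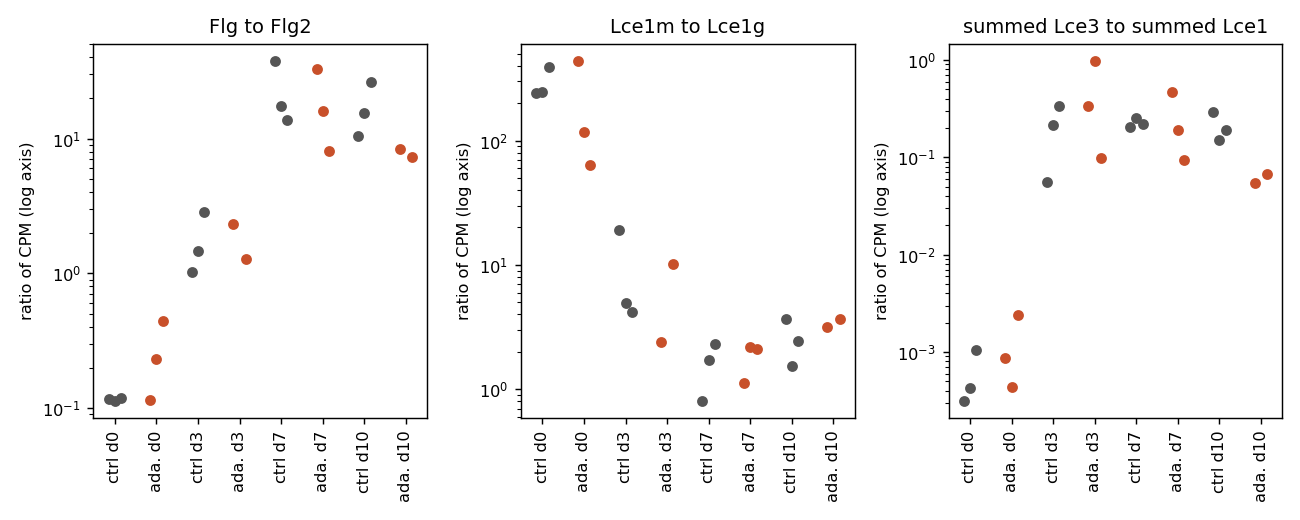
Ratios of counts between related genes in each library by day (log axis, control grey, adalimumab orange): Flg to Flg2, Lce1m to Lce1g, and summed Lce3 to summed Lce1. Adalimumab day 3 replicate 1 is absent from the first 2 panels because a count is 0, and the Flg to Flg2 ratio lies above 7 in every wound of days 7 and 10.

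Per kilobase of the longest annotated transcript of each gene, the genes that ranked highest changed with stage. That length was 3003, 2867 and 2880 bases for Sprr2a1, Sprr2a2 and Sprr2a3. It was 609 to 784 bases for the other Sprr2 genes except Sprr2c-ps, so these ranks depend on the transcript chosen. In control day 0 skin Lce1m led with a mean of 253.8 CPM per kilobase, followed by Lor (151.1) and Sprr2a2 (48.9). In control wounds of day 7 it was Sprr2a2 (139.5), Sprr2a1 (122.3) and Sprr1b (108.1). In adalimumab-treated wounds Sprr2a2 led at 952.3 on day 7 and 866.4 on day 10, where Lor (355.5) was the third after Sprr2a1 (686.7). These are group means over libraries that differ widely, and control day 0 replicate 2 carried most of the Sprr2a2 mean of its group (368 CPM against 16.3 and 35.9 CPM). Sprr2a1 and Sprr2a2 are near-identical copies, as only 3.72% and 3.53% of their 50-base windows are unique to them among annotated transcripts, and their count ratio stayed at 0.823 to 0.954 in all libraries. Their split is therefore uncertain. Of the 45 genes, 14 had only unique windows and 23 had under 90% unique windows.

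Keratinocyte genes were lower in control wounds than in day 0 skin. Of the 7 basal genes, 2, 5 and 5 were called lower on days 3, 7 and 10 (median log2 differences -1.64, -2.74 and -2.81). The 7 basal keratinocyte genes together (Krt5, Krt14, Krt15, Trp63, Col17a1, Itga6 and Itgb4) stood at 6749 to 9526 CPM in control day 0 skin, 507 to 5804 CPM in control wounds of day 3, 651 to 1426 CPM on day 7 and 758 to 1422 CPM on day 10. In adalimumab-treated wounds they stood, from the lowest library to the highest, at 196, 4618 and 5362 CPM on day 3, at 451, 3639 and 4198 CPM on day 7 and at 3797 and 4736 CPM on day 10. The 45 genes together, again from the lowest library to the highest, were at 1132 to 1686 CPM (control day 7), 1203 to 2215 CPM (control day 10), 1321, 10109 and 15582 CPM (adalimumab day 7) and 8383 and 14319 CPM (adalimumab day 10). Adalimumab day 7 replicate 1 was within the control range in the sum of the 45 genes and below it in the basal sum. Of the 7 basal genes, 0 were called between the arms with days 7 and 10 averaged (median log2 difference 1.42).

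Relative to the basal genes, the 45 genes were at 0.0319 to 0.472 in day 0 skin, 1.15 to 1.74 in control wounds of day 7, 1.01 to 1.74 on day 10, 2.41 to 4.28 with adalimumab on day 7 and 2.21 to 3.02 on day 10. The arms did not overlap in this ratio on either day, and adalimumab day 7 replicate 1 kept above the control wounds. A large part of the wound sums came from Sprr2a1 and Sprr2a2. On day 7 their means were 367 and 400 CPM in control and 2359 and 2730 CPM in adalimumab-treated wounds. How reads matching both copies were counted is not stated, and the ratio does not describe every gene of the set. Relative to 6 suprabasal keratinocyte genes (Krt1, Krt10, Krt2, Krt77, Dsg1a and Dsc1) the order was the opposite on day 10, with 2.15 to 3.78 in control and 0.771 to 1.02 with adalimumab. On day 7 this second ratio overlapped, at 4.81 to 5.26 and 1.28 to 5.88. The suprabasal sum itself was 396 to 614 CPM in control and 10868 and 14106 CPM in adalimumab-treated wounds of day 10, and 0 of its 6 genes were called between the arms with days 7 and 10 averaged (median log2 difference 4.21). Krt10, a keratin of the layers above the basal one, was at 199, 101 and 163 CPM against 3769.9 and 4868 CPM on day 10 (averaged log2 difference 4.45 ± 0.93, edgeR adjusted p = 0.063). The part of keratinocyte content in the differences between the arms was not tested.

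**Figure D5:**
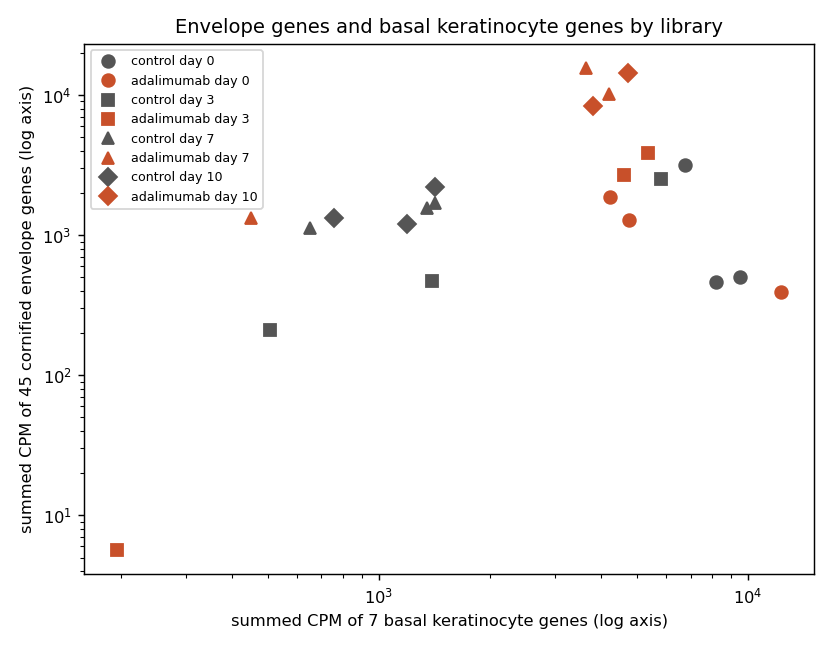
Sum of the 45 genes against the sum of 7 basal keratinocyte genes in each library (CPM, both axes logarithmic), by arm and day. Sprr2a1 and Sprr2a2 make up a large part of the sum of the 45 genes in wounds. The sum of the 45 genes relative to the basal sum is at least 1.01 in wounds of days 7 and 10 and at most 0.472 in day 0 skin, and 4 of the 5 adalimumab-treated wounds of those days lie to the upper right of the control wounds.

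Other genes of envelope assembly were counted from lists. Of 12 other envelope and precursor proteins tested, 8 were called lower in control wounds of day 3, 4 on day 7 and 5 on day 10, and 0 higher, where 17.1%, 17% and 18.2% of all genes tested were called lower. Cdsn (corneodesmosin, an adhesive protein of cornified cells) stood at 60.1, 211 and 57.7 CPM in control day 0 skin and at 2.43, 15.8 and 1.59 CPM on day 3 (log2 difference -4.05 ± 0.90, edgeR adjusted p = 0.00255). Between the arms, 2 of this list passed with days 7 and 10 averaged, Cdsn (3.41 ± 0.63, adjusted p = 0.0489) and Sbsn (suprabasin, 2.41 ± 0.45, adjusted p = 0.0489), and each of these calls held in 7 of 23 single-library omissions (highest adjusted p 0.33). Cdsn was at 10.9, 15.4 and 23.8 CPM in control and 144 and 279 CPM in adalimumab-treated wounds of day 10.

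Of the 4 transglutaminases, 2 were called lower in control wounds of days 7 and 10, where 17% and 18.2% of all genes tested were, and 0 between the arms. On day 10 these were Tgm2 (log2 difference -2.08 ± 0.66, edgeR adjusted p = 0.0208) and Tgm5 (-3.52 ± 1.14, adjusted p = 0.0237). Tgm1, the membrane-bound enzyme of the envelope, differed between the arms by 1.72 ± 0.73 with the days averaged (edgeR adjusted p = 0.343). Among 13 genes of filaggrin processing and shedding, 4 were called lower in control wounds of day 3, where 17.1% of all genes tested were, and Blmh (bleomycin hydrolase, which degrades filaggrin units) was called higher with adalimumab over days 7 and 10 (1.65 ± 0.30, adjusted p = 0.0489), a call that held in 8 of 23 single-library omissions. Blmh stood at 48.3, 67.3 and 56.1 CPM in control and 206 and 262 CPM in adalimumab-treated wounds of day 10. Of 17 transcription factors of terminal differentiation, 1 was called higher and 4 lower in control wounds of day 10, where 16.2% of all genes tested were called higher and 18.2% lower, with Klf4 among the 4 (log2 difference -0.95 ± 0.25, adjusted p = 0.0084, and -0.66, adjusted p = 0.0633, without control day 0 replicate 2), and 0 between the arms. Of 11 S100 genes tested from the same chromosomal region, 5 were called higher in control wounds of days 7 and 10, where 16.4% and 16.2% of all genes tested were, and 0 between the arms on those days, with S100a9, a protein of neutrophils and stressed keratinocytes, among the 5 (log2 difference 7.39 ± 1.07 on day 10, adjusted p = 9.73e-05).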

How the data were processed

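RNA was sequenced from 23 libraries of mouse skin and wounds in 50-base reads, and the authors deposited 1 table of whole-number counts per gene, aligned with STAR to GRCm39 per the submitters' processing notes. For the counting program, its strand setting and its treatment of reads that match several genes, the sources used here give nothing, so counts of near-identical genes, and of genes overlapping an antisense partner, are uncertain. The deposited counts were not normalized. Groups and replicates came from the labels. No pair of libraries held identical counts, and totals were 33080930 to 37494760. For genes with many counts, counting error is therefore small against the spread between mice (common biological coefficient of variation 42.5%). This does not hold for Lce3 and most Sprr2 genes in day 0 skin, where they held few counts.

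edgeR 4.0.16 in R 4.3.3 filtered genes with filterByExpr (minimum count 10, minimum total count 15), scaled libraries by TMM, and fitted 1 mean for each of the 8 groups with the quasi-likelihood test. Benjamini-Hochberg adjustment ran over all 23083 genes, and an adjusted p under 0.05 is a call. CPM were computed from the counts with TMM-scaled totals, and log2 CPM with a prior count of 2. The script was tested on simulated data. Where a group held 0 counts, a fold is a lower bound from a floor of 3 counts over the group, and where it held 1 to 3 counts the ratio has an exact 95% interval, which covers counting error only.

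The column names of days 0 and 3 carry the same animal numbers, which gives 17 mice in all. Deviations of the 3 same-numbered pairs correlated at -0.077, -0.037 and -0.072 in control and 0.26, -0.11 and 0.26 in adalimumab-treated mice. The alternatives were RLE size factors, other filters, a fit of the compared groups alone, a block, DESeq2 1.42.0, a prior count of 0.5, each library left out in turn, and 2 pairs of doubted libraries left out. The block was the animal where day 3 was compared with day 0, and the replicate number in all other comparisons.

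The members and gene lists were chosen with earlier results of these data known. Named in full were the 7 genes outside the Lce and Sprr families, up to 5 of each subfamily by mean level, and per contrast the largest called changes or the smallest p. Lce1a1, Lce1g, Lce1k and the Sprr2 and Lce3 genes outside that rule were named after their values were seen. Promoters came from the RefSeq table of GRCm38.p6 and unique 50-base windows from GENCODE M21 transcripts. No other coordinates are given, since the counts were made on GRCm39.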

Additional observations from a re-analysis of the deposited data

Results flagged for a closer look

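In 2 genes of the lists beside the cornified envelope genes, the change from day 0 to day 3 differed between the arms by the edgeR test of the interaction. For Tgm2, a transglutaminase, the change was more positive with adalimumab by 3.99 ± 0.92 on the log2 scale (adjusted p = 0.0351), and the call held in 9 of 23 single-library omissions. For Padi3, which converts arginine to citrulline in trichohyalin and filaggrin, it was more negative with adalimumab (-9.03 ± 1.93, adjusted p = 0.0276), and the call held in 12 of 23. Without the hair-rich adalimumab day 0 libraries the Padi3 difference was -0.63. Both calls were lost with the animal as a block (adjusted p = 0.185 and 0.219). Of the 44 envelope genes 0 were called in this test.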

How the results depend on the processing

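Counts of called envelope genes kept to within 1.5 times their value except as follows, and for each the cause was not tested. They describe the processing. Where the Results give no share of all genes called in the same fit, a count is not a result about these genes. Between the arms on day 0, 1 gene became 0 with RLE size factors, the stricter filter, the compared groups alone, and either doubted pair left out, and 2 with DESeq2. Between the arms on day 3, 0 became 5 with DESeq2 and 11 without the doubted day 3 pair. On day 10, 0 became 30 in the compared groups alone, and for days 7 and 10 averaged 0 became 1 without the filter, 26 in the compared groups alone, 18 with DESeq2 and 23 without the day 3 pair. Control day 7 against day 0 went from 17 to 26 without that pair. In the adalimumab arm, leaving out the hair-rich pair gave 0, 8 and 1 on days 3, 7 and 10, and fitting the compared groups alone gave 0 on day 3 and 31 on day 10. The arm difference in change became 5 on day 3 with DESeq2, 5 without the day 3 pair, and 1 on day 10 with DESeq2.

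With the animal as a block, adalimumab day 3 against day 0 went from 20 to 10. With the replicate number as a block, the arms on day 0 went from 1 to 0. Under neither block did another count move by more than 1.5 times. Leaving out each library gave 0 to 1 between the arms on day 0, 0 to 2 on day 3, 0 to 16 for days 7 and 10 averaged, 13 to 25, 13 to 24 and 12 to 18 in control days 3, 7 and 10, 10 to 23, 18 to 26 and 10 to 27 in adalimumab days 3, 7 and 10, and 0 to 3 for the arm difference on day 3.

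Of 4447 alternatives to 144 gene differences, 4078 kept direction and call, 262 lost the call, 97 gained one and 10 changed sign. The 10 follow with their range over single-library omissions: Sprr1a between the arms on day 0 (-0.18 without adalimumab day 0 replicate 3, up to 5.75, and -3.26 without the hair-rich pair), Lor between the arms on day 3 (-0.51 without adalimumab day 3 replicate 3, up to 3.36), Sprr4 between the arms on day 7 (-1.11 to 4.63, with 0.40 without adalimumab day 7 replicate 1) and in control day 10 against day 7 (-3.23 to 2.48), Crnn in adalimumab days 3 and 7 (0.38 and 3.10 without the hair-rich pair), Lor in adalimumab day 7 (-0.16 to 1.34) and Flg2 in adalimumab day 10 (-0.071 to 0.98). Levels under a prior count of 0.5 moved by less than the spread between replicates. Lce3 and most Sprr2 genes held so few counts in day 0 skin that depth limits the size of their folds there.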
